A study of Rattus norvegicus with 10 samples.

Results

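Imprinted growth genes are transcribed mainly from the copy inherited from one parent, and 8 of them were followed here in the rat heart: H19, Igf2, Cdkn1c, Dlk1, Peg3, Mest, Plagl1 and Grb10. They were taken from a list of imprinted genes, and each was read from its brightest probe set among those that the platform annotation assigns to a single gene symbol. Of the 8 genes, 7 were measured, among 14324 genes in all. No probe set carries the symbol Peg3 alone, so Peg3 was not analysed here. H19 was chosen by its measured rise after 2 days of heat against control, so its values in comparisons that use those arrays or the control arrays are given as a description without a p-value. The other 6 measured genes were listed for being imprinted.

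The arrays measured left ventricle RNA of Sabra strain rats that were 3 weeks old when the experiment began. There were 5 groups, each with 2 separate biological pools of 5 animals. AC2d rats spent 2 days at 34 °C and were labelled 1 month old. AC30 rats spent 30 days at 34 °C and were labelled 2 months old. DeAC rats were returned to 24 °C for 30 days after that heat acclimation and were labelled 3 months old. ReAC rats then spent another 2 days at 34 °C and were also labelled 3 months old. Control rats were untreated and labelled 1 month old. Only AC2d against control and ReAC against DeAC compare rats of the same labelled age; in every other comparison heat history and age cannot be told apart. Pooling hides the spread between animals, and no untreated rats of 2 or 3 months were analysed here.

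In mouse and human, H19 and Igf2 lie side by side and share enhancers. A control region between them, methylated on the paternal copy, sets which of them is transcribed: H19, a long noncoding RNA, from the maternal copy, and Igf2, a growth factor of the insulin family, from the paternal copy. Cdkn1c, an inhibitor of cyclin-dependent kinases, lies in the neighbouring imprinted cluster. Several imprinted growth genes are highly transcribed in fetal and newborn organs of the mouse and decline as the animal grows.

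H19 also carries a microRNA precursor, and Igf2 carries another in an intron. Their mature sequences are shown because their host genes are followed below. The microRNAs themselves were not analysed here. All 4 lie inside their host genes on the minus strand of chromosome 1 in RefSeq's GRCr8 annotation. They are written 5′ to 3′ with the seed, bases 2 to 8, in capitals, and the 4 seeds all differ.
rno-miR-675-5p: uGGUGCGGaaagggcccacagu
rno-miR-675-3p: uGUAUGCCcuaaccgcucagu
rno-miR-483-5p: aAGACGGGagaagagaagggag
rno-miR-483-3p: cACUCCUCcccucccgucuugu
In the order printed they lie at chr1:207161800-207161821, chr1:207161766-207161786, chr1:207247903-207247924 and chr1:207247865-207247886, the first pair inside H19 and the second inside Igf2.

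The values are log2 signals of the deposited table, brought to a common distribution over the 10 arrays. Array medians before that step lay between 5.95 and 6.10. A change is a difference of group means on the log2 scale, given with its standard error (SE) from limma. The SE rests on 1 spread per gene over all groups (n = 2 pools each, 5 residual and 8.3 prior degrees of freedom). A gene passed where its two-sided p-value, adjusted by Benjamini and Hochberg over all 14324 genes, was under 0.05. Some counts at an unadjusted p under 0.05 are also given. The share of all genes at that threshold is not given, so those counts cannot be read as an excess. Ventricular markers were bright in all pools: the linear signals of 8 of 8 summed to 65700 to 66100 in AC2d, 65500 to 66500 in AC30, 67600 to 68300 in DeAC, 65400 to 65600 in ReAC and 66600 to 68900 in control. Atrial markers (7 of 8 measured) were not near 0 and summed to 27400 to 28900 in AC2d, 34000 to 37600 in AC30, 1460 to 1480 in DeAC, 16700 to 16900 in ReAC and 6380 to 24100 in control. Both pools of a group differed by over 1 log2 in 0 genes in AC2d, 1 in AC30, 1 in DeAC, 0 in ReAC and 57 in control, so the control pools stood apart from each other. In whole tissue, fewer cells of a type and less RNA per cell cannot be told apart.

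H19 was high during the first heat exposure and low after it. Its log2 signal was 9.32 and 9.48 in AC2d, 9.07 and 8.98 in AC30, 7.06 and 7.29 in DeAC, 7.72 and 7.71 in ReAC, and 7.59 and 7.66 in control. The 4 pools of AC2d and AC30 lay above all 6 other pools, and the DeAC pools were the lowest. AC2d exceeded control by 1.78 ± 0.09 (3.42-fold) and AC30 exceeded control by 1.39 ± 0.09 (2.63-fold). DeAC differed from control by -0.46 ± 0.09 and ReAC by 0.09 ± 0.09, which is no more than its error. In order of level the groups ran AC2d, AC30, ReAC, control and DeAC, and of these neighbours ReAC and control did not differ beyond their error.

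A second, dimmer H19 probe set gave the same main split. It read 8.62 and 8.62 in AC2d, 8.43 and 8.21 in AC30, 7.03 and 6.86 in DeAC, 6.99 and 7.25 in ReAC, and 7.18 and 7.19 in control. AC2d exceeded control by 1.44 and AC30 by 1.14 on this probe set (SE 0.10 each). Here the ReAC pools spanned the control pools and 1 DeAC pool. In the authors' deposited table, the signed folds against control were 3.41 in AC2d, 2.62 in AC30, -1.35 in DeAC and 1.09 in ReAC for the brighter probe set. For the dimmer one the authors' deposited table gives 2.66, 2.18, -1.19 and -1.04 in the same order of groups. That table lists none of the other 6 measured genes.

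**Figure D1:**
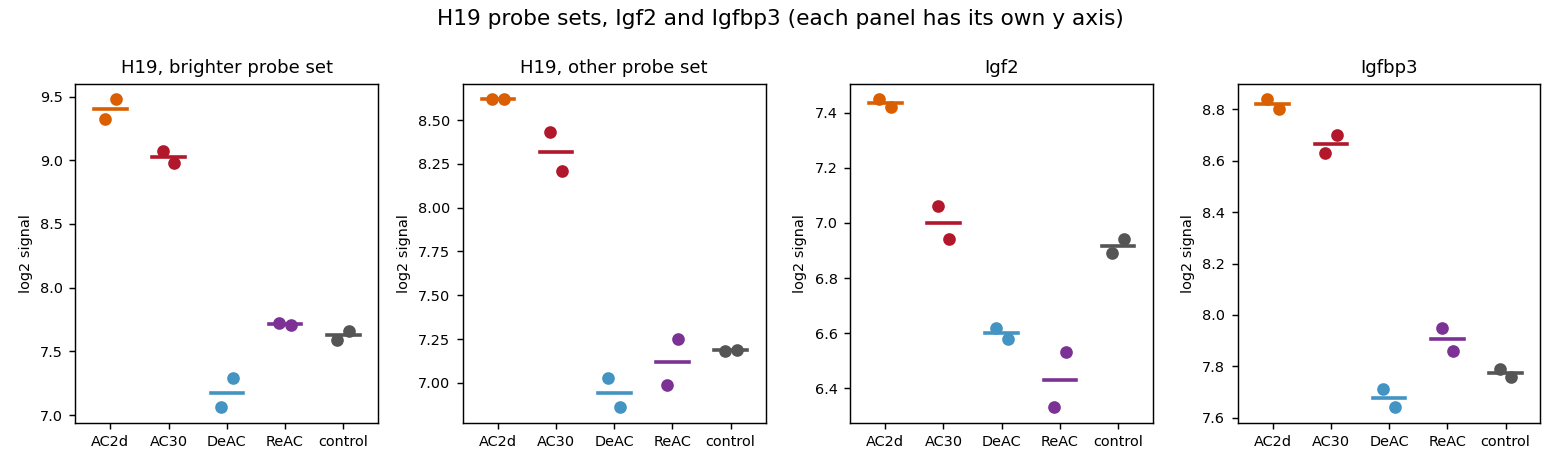
Log2 signal (y axis, a separate scale in each panel) of both H19 probe sets, Igf2 and Igfbp3 in the 5 groups (x axis); points are the 2 pools of a group and bars their mean. The AC2d and AC30 pools lie above all other pools in the panels of both H19 probe sets and of Igfbp3, whereas Igf2 in AC30 (7.06 and 6.94) lies at the level of control (6.89 and 6.94).

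The AC30, DeAC and ReAC arrays do not enter the AC2d rise that chose H19, and 3 tests compare them. The members were chosen with earlier results of these data known, so these p-values are not free of that choice. H19 fell by 1.85 ± 0.09 in DeAC against AC30 (3.61-fold, adjusted p = 3.62e-08), and the second probe set changed by -1.38. H19 was also lower in ReAC than in AC30, by -1.31 ± 0.09 (2.47-fold, adjusted p = 1.19e-06), with -1.20 on the second probe set. Both calls held without any 1 array. In the age-matched comparison H19 rose by 0.54 ± 0.09 in ReAC against DeAC (adjusted p = 0.00356). That call did not hold without ReAC replicate 1 (0.54, adjusted p = 0.0524), and on the second probe set the difference was 0.17 ± 0.10 with overlapping pools. The response of H19 to the second 2 days of heat minus that to the first was -1.23 ± 0.12, and -1.26 ± 0.15 on the second probe set, given as a description because it contains the arrays that chose H19.

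The atrial marker sums were, like H19, higher in AC2d and AC30 than in DeAC and ReAC, but they were higher in AC30 than in AC2d, where H19 was lower. Of all genes, 7.45% passed as lower in DeAC against AC30 and 1.7% as higher in ReAC against DeAC. In DeAC against AC30 6 of the 7 atrial markers passed as lower, and in ReAC against DeAC 6 of the 7 passed as higher. Their part in the H19 differences was not tested. Within the control group, where the atrial marker Sln read 11.94 and 9.23, H19 read 7.59 and 7.66. H19 is also known from skeletal muscle, and the skeletal muscle markers (9 of 12 measured) summed to 483 to 502 in AC2d, 474 to 507 in AC30, 436 to 441 in DeAC, 469 to 470 in ReAC and 469 to 478 in control. Of these 9, Tnnt3 alone passed as lower in DeAC, against AC30 and against control (3.77% of all genes). Tnnt3 alone also passed as higher in ReAC against DeAC. That gene lies near H19 on chromosome 1.

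Igf2, the ligand encoded beside H19, was higher in AC2d and lower in ReAC than in the 1-month control. It read 7.45 and 7.42 in AC2d, 7.06 and 6.94 in AC30, 6.62 and 6.58 in DeAC, 6.33 and 6.53 in ReAC, and 6.89 and 6.94 in control. Both AC2d pools were above every other pool, and all 4 DeAC and ReAC pools were below every other pool. The rise in AC2d against control was 0.52 ± 0.09 (adjusted p = 0.0105). It did not pass without AC2d replicate 1 (0.50, adjusted p = 0.137) or without AC2d replicate 2 (0.54, adjusted p = 0.0997). In AC30 the difference from control was 0.09 ± 0.09 (adjusted p = 0.712).

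After the heat, Igf2 was at -0.31 ± 0.09 in DeAC against control, which did not pass (adjusted p = 0.0612). It fell by 0.49 ± 0.09 in ReAC against control (adjusted p = 0.00481), a call that did not hold without ReAC replicate 1 (-0.39, adjusted p = 0.0793). Against AC30, Igf2 fell by 0.40 in DeAC (adjusted p = 0.0098) and by 0.57 in ReAC (adjusted p = 0.00146). The first of these did not pass without AC30 replicate 1 (-0.34, adjusted p = 0.0834) or DeAC replicate 2 (-0.38, adjusted p = 0.0657), and the second passed without any 1 array.

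The change of Igf2 had opposite signs in the 2 short heat exposures. The second, ReAC against DeAC, was -0.17 ± 0.09 (adjusted p = 0.411), and the first, AC2d against control, was the 0.52 above. The difference of these responses was -0.69 ± 0.13 and did not pass (adjusted p = 0.0521). It passed without control replicate 2 (-0.71, adjusted p = 0.0293).

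Of the genes around H19 on chromosome 1, Igf2 was the 1 that passed in AC2d against control, where 2.53% of all genes passed. The 10 measured genes on each side of H19 in the GRCr8 gene order were examined, a choice made after their values were seen. In AC2d against control the 19 of these 20 genes other than Igf2 lay between -0.27 and 0.20. In AC30 against control, where 8.53% of all genes passed, 0 of the 20 passed by limma, with 4 at an unadjusted p under 0.05. After deacclimation 4 of the 20 passed against control, where 8.22% of all genes passed, 4.45% higher and 3.77% lower. Of the 4, Kcnq1, a potassium channel gene, was higher (0.21, adjusted p = 0.0295) and Lsp1 (-0.33, adjusted p = 0.0121), Tnnt3 (-0.41, adjusted p = 0.0063) and Cd81 (-0.21, adjusted p = 0.00833) were lower. In ReAC against control 3 of the 20 passed, where 10.9% of all genes passed: Igf2 and Cd81 were lower and Cdkn1c was higher. In DeAC against AC30 2 were higher (Dusp8 and Ctsd) and 4 lower (Lsp1, Tnnt3, Igf2 and Cd81), against 9.85% and 7.45% of all genes. In ReAC against AC30 1 was higher (Dusp8) and 2 lower (Igf2 and Cd81), against 6.77% and 4.85%. In ReAC against DeAC 1 was higher (Tnnt3) and 0 lower, against 1.7% and 2.21%. The Tnnt3 change was -0.54 in DeAC against AC30 (adjusted p = 0.000366) and 0.33 in ReAC against DeAC (adjusted p = 0.0348).

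**Figure D2:**
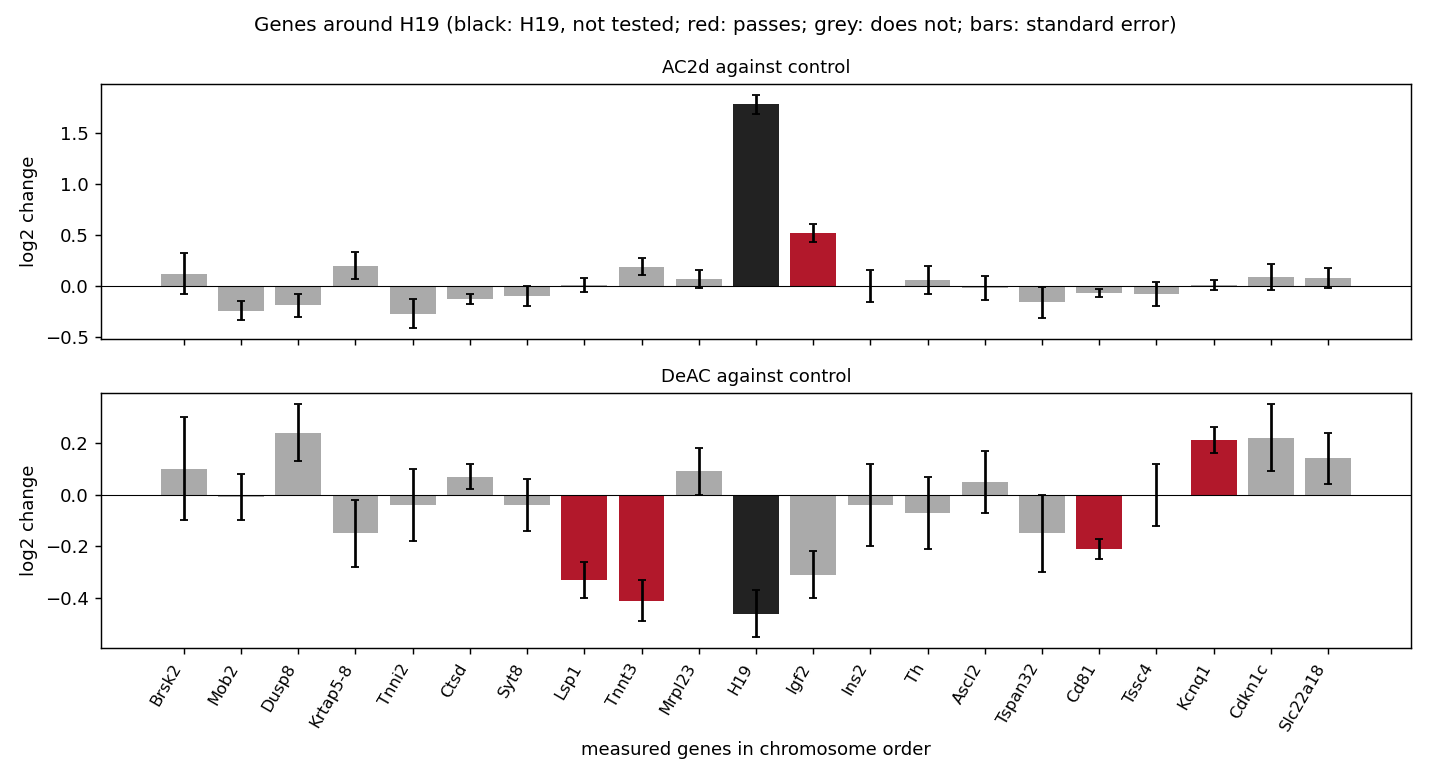
Log2 change (bars, y axis, a separate scale in each panel; lines are the standard error) of H19 and its 10 nearest measured genes on each side in RefSeq gene order (x axis) in AC2d against control (top) and DeAC against control (bottom); black marks H19, red a gene that passed and grey one that did not. H19 stands at 1.78 and Igf2 at 0.52 in the top panel, where the other 19 genes lie between -0.27 and 0.20.

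In AC2d against control the count for the 6 genes other than H19 was 1 higher (Igf2) and 0 lower. Over all genes 2.53% passed in this comparison, 0.663% higher and 1.86% lower. The median change of the 6 genes was -0.08, against -0.02 over all genes. Pools of the groups, compared on unrounded values here and below, did not overlap for 3 of the 6, and for 43.7% of all genes. In AC30 against control 1 of the 6 passed, Grb10, which was lower (-0.21 ± 0.06, adjusted p = 0.0498). Over all genes 8.53% passed there, 3.57% higher and 4.96% lower. Pools did not overlap for 3 of the 6 genes, and for 45.0% of all genes. One of the 3 is Igf2, whose nearest pools both read 6.94. The median change was -0.03 against -0.01 over all genes. The Grb10 call failed without any 1 of the 10 arrays, with adjusted p-values of 0.0522 to 0.241 and changes of -0.24 to -0.18. In AC30 against AC2d 0 of the 6 passed by limma, with 2 at an unadjusted p under 0.05, where 0.761% of all genes passed, 0.328% higher and 0.433% lower. Pools did not overlap for 3 of the 6, and for 41.8% of all genes. Igf2 came nearest (-0.43, adjusted p = 0.0602) and passed without either control array (-0.43, adjusted p = 0.0262 in both).

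**Figure D3:**
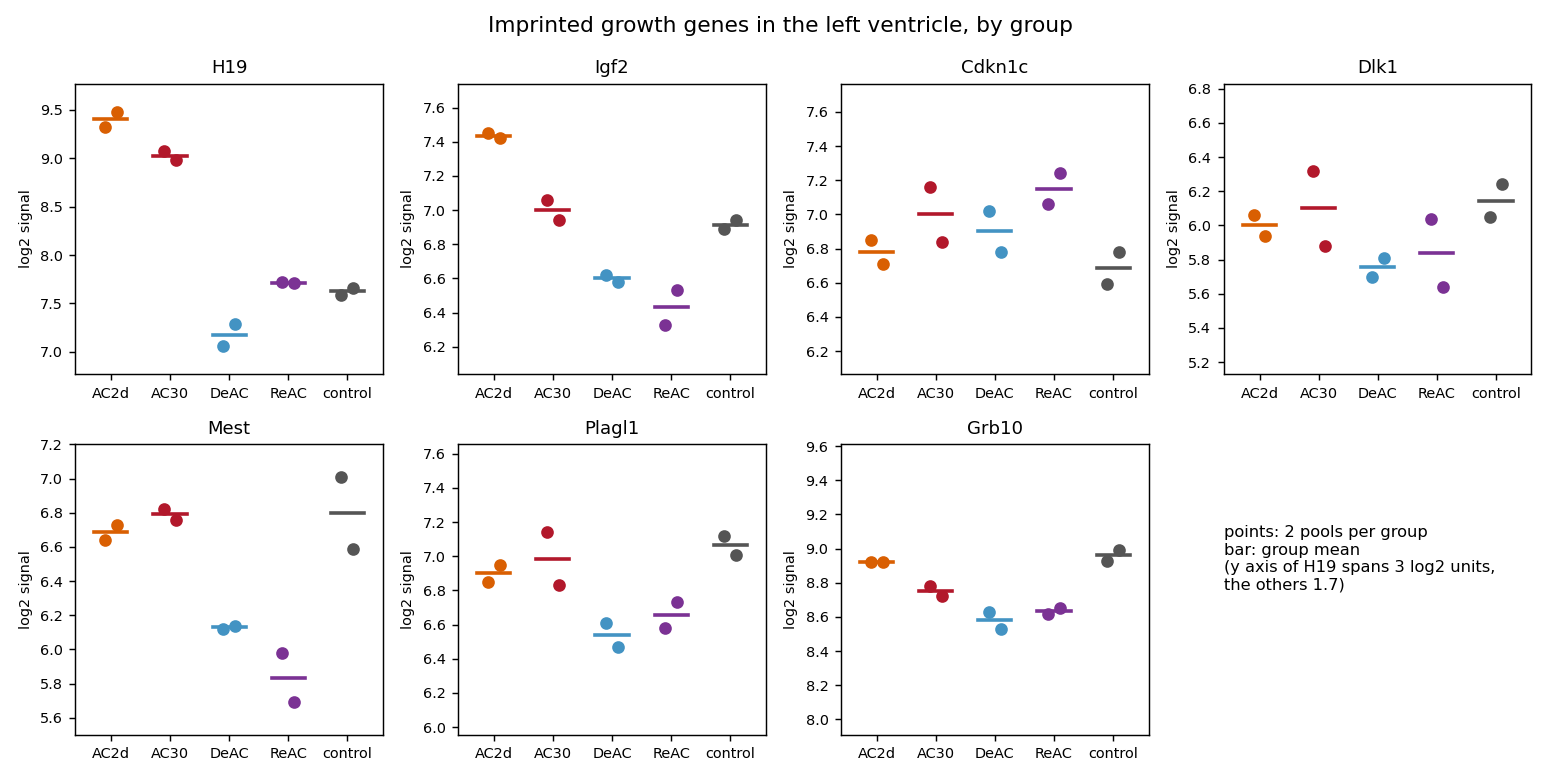
Log2 signal (y axis, a separate scale in each panel) of the 7 measured imprinted growth genes in the 5 groups (x axis); points are the 2 pools of a group and bars their mean. H19 and Igf2 are highest in AC2d, Mest, Plagl1 and Grb10 are lowest in DeAC or ReAC, and the 2 Dlk1 pools of AC30 lie 0.44 apart.

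Mest, Plagl1 and Grb10 were lower in DeAC and in ReAC than in control. Mest, which encodes a protein of the alpha/beta hydrolase family, fell furthest. It read 6.64 and 6.73 in AC2d, 6.82 and 6.76 in AC30, 6.12 and 6.14 in DeAC, 5.98 and 5.69 in ReAC, and 7.01 and 6.59 in control. Every DeAC and ReAC pool was below every other pool. In ReAC Mest was about as dim as Dlk1 (6.04 and 5.64 there), so the size of its fall may be limited by background. The fall was 0.97 ± 0.14 in ReAC against control (1.95-fold, adjusted p = 0.000479), and it passed without any 1 array (-1.18 to -0.75).

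In DeAC against control Mest fell by 0.67 ± 0.14 (1.59-fold, adjusted p = 0.00851). That call did not hold without DeAC replicate 1 (-0.66, adjusted p = 0.0532), DeAC replicate 2 (-0.68, adjusted p = 0.0583) or control replicate 1 (-0.46, adjusted p = 0.0649). Against AC30, Mest fell by 0.66 in DeAC (adjusted p = 0.00385) and by 0.96 in ReAC (adjusted p = 0.000505), and both passed without any 1 array. Its differences in AC2d (-0.11, adjusted p = 0.829) and AC30 (-0.01, adjusted p = 0.986) against control did not pass.

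Plagl1, a zinc finger transcription factor, read 6.85 and 6.95 in AC2d, 7.14 and 6.83 in AC30, 6.61 and 6.47 in DeAC, 6.58 and 6.73 in ReAC, and 7.12 and 7.01 in control. The DeAC and ReAC pools were again the 4 lowest. Plagl1 fell by 0.52 ± 0.11 in DeAC against control (adjusted p = 0.0127), but not without DeAC replicate 2 (-0.45, adjusted p = 0.117) or control replicate 1 (-0.47, adjusted p = 0.0593). It fell by 0.41 ± 0.11 in ReAC against control (adjusted p = 0.0354), a call that failed without any 1 of 6 arrays, those of AC2d, ReAC and control, where adjusted p-values were 0.0519 to 0.245 and changes -0.49 to -0.33. It also failed with each array centred on its median (-0.35, adjusted p = 0.0803). Against AC30 it fell by 0.44 in DeAC (adjusted p = 0.0159), though not without AC30 replicate 1 (-0.29, adjusted p = 0.177) or DeAC replicate 2 (-0.37, adjusted p = 0.128). In ReAC against AC30 the change was -0.33 (adjusted p = 0.0843), and -0.49 without AC30 replicate 2 (adjusted p = 0.0198).

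Grb10, an adaptor that binds the insulin and IGF1 receptors and restrains growth in the mouse, read 8.92 and 8.92 in AC2d, 8.78 and 8.72 in AC30, 8.63 and 8.53 in DeAC, 8.62 and 8.65 in ReAC, and 8.93 and 8.99 in control. The AC2d pools stood just under the control pools, and the other pools were lower, with DeAC and ReAC below AC30. Grb10 fell by 0.37 ± 0.06 in DeAC (adjusted p = 0.00212) and by 0.32 ± 0.06 in ReAC (adjusted p = 0.00332) against control, and both calls held without any 1 array. With each array centred on its median instead, the changes were -0.25 in DeAC (adjusted p = 0.0667) and -0.21 in ReAC (adjusted p = 0.12).

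The start regions of these 3 genes are printed because the genes were lower in the same groups. Each window is 300 bases, 250 before and 50 after the start, from RefSeq's GRCr8 table, 5′ to 3′ on the gene's strand, with every CG, the dinucleotide that carries DNA methylation, in capitals.
Mest: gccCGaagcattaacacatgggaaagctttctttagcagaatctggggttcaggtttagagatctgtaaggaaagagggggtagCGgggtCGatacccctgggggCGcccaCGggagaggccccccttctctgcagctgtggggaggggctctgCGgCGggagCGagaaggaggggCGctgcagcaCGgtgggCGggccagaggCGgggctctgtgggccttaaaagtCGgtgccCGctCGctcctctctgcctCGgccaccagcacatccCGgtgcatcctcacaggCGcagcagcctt
Plagl1: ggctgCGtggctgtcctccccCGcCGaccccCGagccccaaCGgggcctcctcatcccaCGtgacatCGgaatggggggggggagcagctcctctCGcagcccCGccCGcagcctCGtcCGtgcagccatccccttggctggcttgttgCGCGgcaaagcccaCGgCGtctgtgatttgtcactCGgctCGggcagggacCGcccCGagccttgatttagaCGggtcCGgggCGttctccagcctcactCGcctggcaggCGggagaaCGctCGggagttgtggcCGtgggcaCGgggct
Grb10: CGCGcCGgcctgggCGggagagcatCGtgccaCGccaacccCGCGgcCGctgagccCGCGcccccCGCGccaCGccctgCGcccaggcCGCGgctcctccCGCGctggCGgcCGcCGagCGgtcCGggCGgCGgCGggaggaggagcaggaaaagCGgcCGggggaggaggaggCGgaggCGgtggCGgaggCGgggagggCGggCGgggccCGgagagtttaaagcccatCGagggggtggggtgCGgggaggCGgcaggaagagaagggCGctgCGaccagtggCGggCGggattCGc
The windows lie at chr4:60321564-60321863 (plus strand), chr1:9297214-9297513 (plus strand) and chr14:90816338-90816637 (minus strand). The letters CG read the same on both strands, and a window was scored by how many it holds. There were 18 in the Mest window, 29 in Plagl1 and 44 in Grb10, against a median of 7 over 33469 windows. The share of all windows with at least as many was 27.5% for Mest, 11.5% for Plagl1 and 1.89% for Grb10. Dlk1 had 45 (1.66%), Peg3 had 16 (30.5%), and the 2 Igf2 windows had 19 (25.7%) and 7 (51.4%). Methylation was not measured on these arrays.

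Cdkn1c moved the other way in ReAC against control, the 1 comparison where it passed. It read 6.85 and 6.71 in AC2d, 7.16 and 6.84 in AC30, 7.02 and 6.78 in DeAC, 7.06 and 7.24 in ReAC, and 6.59 and 6.78 in control. Both ReAC pools were above both control pools, and the AC2d and DeAC pools reached down to the control level. Cdkn1c rose by 0.46 ± 0.13 in ReAC against control (adjusted p = 0.0314). The call did not hold without ReAC replicate 1 (0.55, adjusted p = 0.0726), ReAC replicate 2 (0.37, adjusted p = 0.229) or control replicate 1 (0.37, adjusted p = 0.135). Its differences from control in AC2d (0.09, adjusted p = 0.854), AC30 (0.31, adjusted p = 0.169) and DeAC (0.22, adjusted p = 0.344) did not pass.

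Dlk1, a membrane protein related to the Notch ligands, was near the array median and passed in no comparison. It read 6.06 and 5.94 in AC2d, 6.32 and 5.88 in AC30, 5.70 and 5.81 in DeAC, 6.04 and 5.64 in ReAC, and 6.05 and 6.24 in control. Pools within a group lay up to 0.44 apart. Against control its change was -0.14 in AC2d (adjusted p = 0.808), -0.05 in AC30 (adjusted p = 0.929), -0.39 in DeAC (adjusted p = 0.166) and -0.30 in ReAC (adjusted p = 0.275), with an SE of 0.16 each. In DeAC against AC30 it was -0.34 (adjusted p = 0.179), and -0.56 without AC30 replicate 2 (adjusted p = 0.0399).

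In DeAC against control 3 of the 6 genes other than H19 were lower (Mest, Plagl1 and Grb10) and 0 higher. Over all genes 8.22% passed there, 4.45% higher and 3.77% lower. The median change of the 6 was -0.38, against 0.0 over all genes, and the DeAC and control pools did not overlap for 6 of the 6, against 49.2% of all genes. For Cdkn1c the nearest pools both read 6.78, so they separate only beyond the printed digits. Without DeAC replicate 2, or without control replicate 1, Grb10 was the 1 gene of the 6 left.

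In ReAC against control 4 of the 6 were lower (Igf2, Mest, Plagl1 and Grb10) and 1 was higher (Cdkn1c). Over all genes 10.9% passed, 5.63% higher and 5.28% lower. The median was -0.37, against -0.01 over all genes, and the pools did not overlap for 6 of the 6, against 55.0% of all genes. Without ReAC replicate 1 there were 2 passing genes, and without ReAC replicate 2 or control replicate 1 there were 3. These comparisons share the control pools, and the rats differ in labelled age.

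Over the 7 measured genes, ReAC against DeAC, the age-matched comparison of the second 2 days of heat, gave 1 higher (H19) and 0 lower. Over all genes 3.91% passed, 1.7% higher and 2.21% lower. Pools did not overlap for 4 of the 7, and for 46.7% of all genes. The median change was 0.09 against -0.01. Mest differed by -0.30 (adjusted p = 0.303) and Cdkn1c by 0.25 (adjusted p = 0.37). The difference between the second and the first 2-day response passed for 0 of the 6 genes other than H19 by limma, with 1 at an unadjusted p under 0.05, where 0.3% of all genes passed, 0.223% higher and 0.0768% lower.

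Set against AC30, 4 of the 7 genes were lower in DeAC (H19, Igf2, Mest and Plagl1) and 0 higher. Over all genes 17.3% passed, 9.85% higher and 7.45% lower, the largest share of the 9 comparisons run. Pools did not overlap for 6 of the 7, and for 52.7% of all genes. The median change was -0.40 against 0.01. Without AC30 replicate 1 or DeAC replicate 2 the count was 2. In ReAC against AC30, 3 of the 7 were lower (H19, Igf2 and Mest), with 11.6% of all genes passing, 6.77% higher and 4.85% lower. Pools did not overlap for 5 of the 7, and for 53.5% of all genes. The median change was -0.33.

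**Figure D4:**
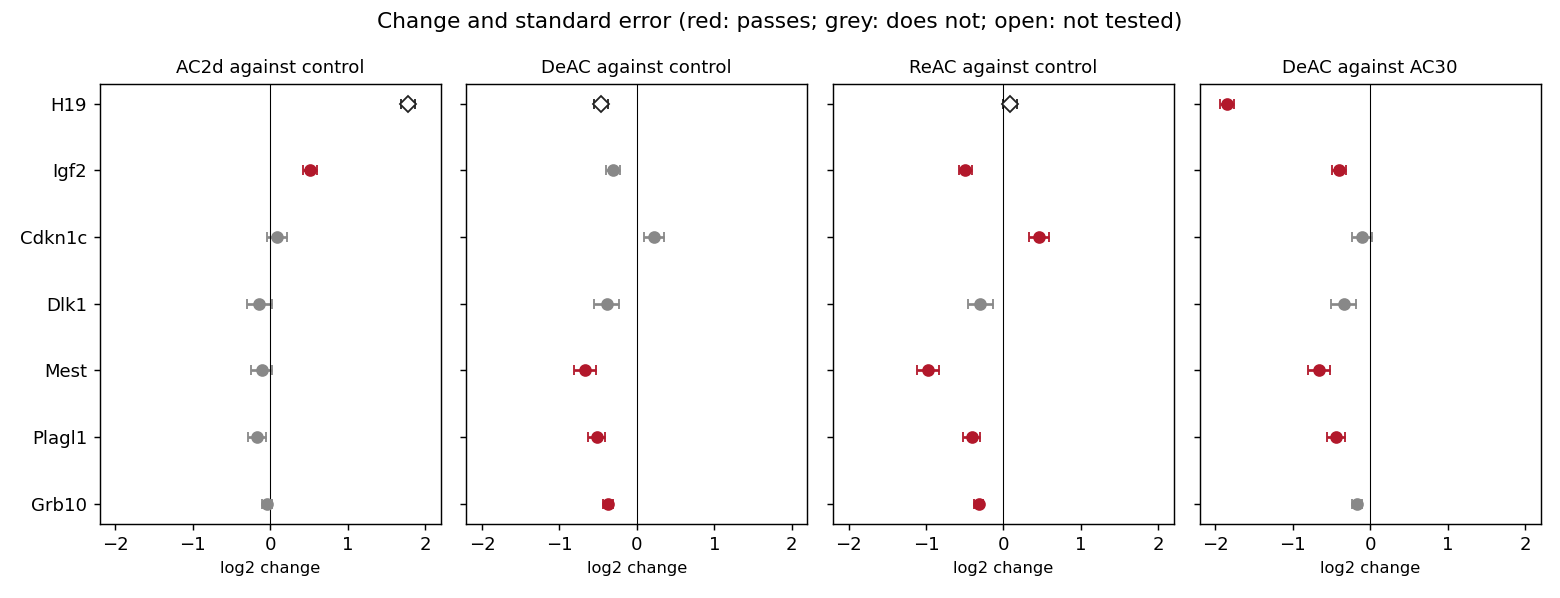
Log2 change (x axis) with its standard error (bars) of the 7 measured genes (rows) in 4 comparisons (panels); red points passed, grey points did not, and open diamonds (H19 where control arrays enter) were not tested. H19 stands farthest from 0, at 1.78 in AC2d against control and -1.85 in DeAC against AC30, and Mest, Plagl1 and Grb10 are red and below 0 in DeAC and in ReAC against control.

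In DeAC against AC30, where Mest was lower, 8 of 8 fibroblast markers passed as lower (median change -0.67), against 7.45% of all genes. The 8 fibroblast markers summed to 16000 to 16400 in AC2d, 16400 to 16500 in AC30, 11300 to 11400 in DeAC, 11800 to 11800 in ReAC and 14400 to 17400 in control. Against control, 3 of the 8 were higher in AC2d (Pdgfra, Dcn and Lum) and 0 lower, against 0.663% and 1.86% of all genes. In AC30 4 were higher (Tcf21, Pdgfra, Dcn and Lum) and 1 lower (Postn), against 3.57% and 4.96% of all genes. In DeAC 4 were lower (Col1a1, Postn, Col1a2 and Col3a1) and 1 was higher (Dcn), against 3.77% and 4.45% of all genes. In ReAC 3 were lower (Col1a1, Col1a2 and Col3a1) and Dcn was higher, against 5.28% and 5.63% of all genes. H19, Igf2, Mest and Plagl1 fell in DeAC against AC30, where 7.45% of all genes passed as lower. Also lower there were 3 of 6 smooth muscle and pericyte, 2 of 5 mesothelial and epicardial and 3 of 6 adipocyte markers. Against control, 2 of the 6 adipocyte markers were lower in DeAC, against 3.77% of all genes. The control pools differed in adipocyte markers: Ucp1 read 8.43 and 4.50 and Adipoq 7.30 and 5.26, where Mest read 7.01 and 6.59. The 7 macrophage markers summed to 1760 to 1790 in DeAC, 2180 to 2220 in ReAC and 1390 to 1520 in control. Against control 4 of the 7 passed as higher in DeAC and 7 of the 7 in ReAC, against 4.45% and 5.63% of all genes. The part of these cell markers in the results of H19, Igf2, Mest, Plagl1 and Grb10 was not tested.

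Mest and the collagen genes followed each other over the arrays. Col1a2, which encodes a chain of type I collagen, read 11.45 and 11.50 in AC2d, 11.55 and 11.45 in AC30, 10.85 and 10.88 in DeAC, 10.70 and 10.76 in ReAC, and 11.79 and 11.44 in control. Among 458 genes whose signal varied with an SD of at least 0.3 log2, those most like Mest by Pearson correlation over the 10 arrays were Col1a2 (0.97), Col1a1 (0.962) and Igfbp5 (0.956). These figures describe 10 arrays that fall into 5 groups, so much of the likeness is between groups. Sln did not order the arrays in this way: it read 11.39 and 11.49 in ReAC, where Mest was lowest, against 5.79 and 5.73 in DeAC.

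**Figure D5:**
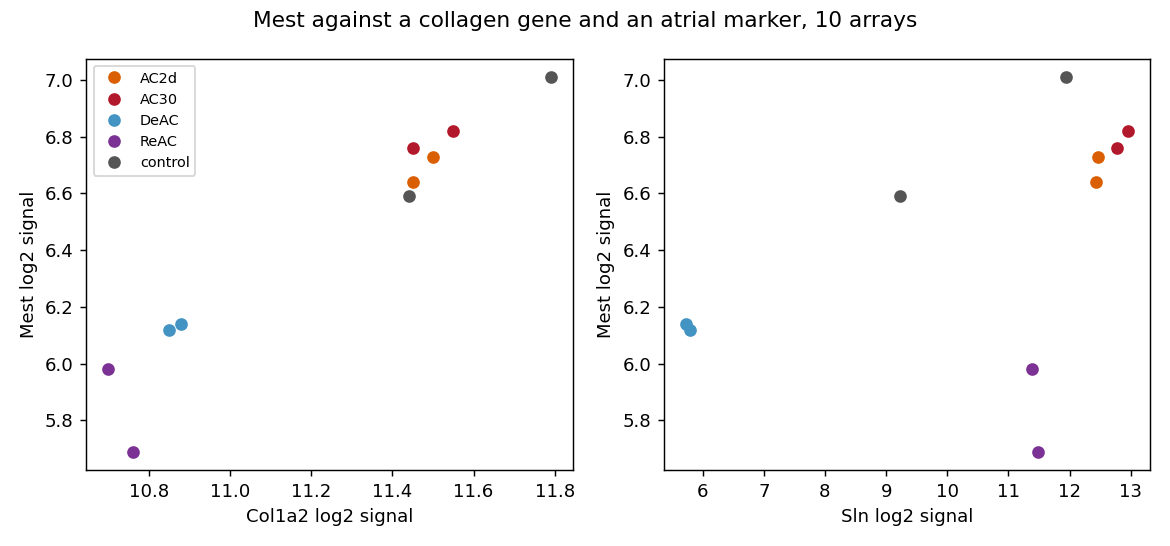
Log2 signal of Mest (y axis) against Col1a2 (left x axis, log2 signal) and against the atrial marker Sln (right x axis, log2 signal), one point per array, coloured by group. The DeAC and ReAC pools are low for both Mest and Col1a2 (10.70 to 10.88), whereas for Sln the ReAC pools stand at 11.39 and 11.49 and the DeAC pools at 5.79 and 5.73.

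The genes most like H19 by the same measure were Igfbp3 (0.985), Epyc (0.938), Cgnl1 (0.927), C7 (0.92) and Smarca1 (0.92). Igfbp3 is the main carrier of IGF1 and IGF2 in blood plasma, and Epyc is a small proteoglycan of cartilage matrix. Igf2 was nearest to Dynll1 (0.886), G0s2 (0.878) and H19 (0.819). Plagl1 was nearest to Olfml2b (0.953), Krt33b (0.943) and Atp6v1g2 (0.913), and Grb10 to Nrep (0.91), Col5a1 (0.894) and Fbn1 (0.888). Cdkn1c was nearest to Sqor (0.837), RT1-Da (0.823) and Ces1d (0.754). Dlk1 lay below the array median and was left out.

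Among IGF ligands, receptors, binding proteins and adaptors, 17 of 21 were measured. Igfbp3 alone of them passed in AC2d against control, where 2.53% of all genes passed. Igfbp3 rose there by 1.04 ± 0.07 (adjusted p = 3.04e-06). It read 8.84 and 8.80 in AC2d, 8.63 and 8.70 in AC30, 7.71 and 7.64 in DeAC, 7.95 and 7.86 in ReAC, and 7.79 and 7.76 in control. Like H19, its AC2d and AC30 pools were above all others. It rose by 0.89 in AC30 against control (adjusted p = 1.13e-05) and fell by 0.99 in DeAC against AC30 (adjusted p = 1.21e-06), and these 3 calls held without any 1 array.

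In AC30 against control 3 of the 17 IGF genes were higher and 0 lower, against 3.57% and 4.96% of all genes: Igfbp3, Igf1 and Igfbp6. After deacclimation 0 were higher than in control and 4 lower, against 4.45% and 3.77% of all genes: Igfbp4, Igfbp7, Igf1 and Igfbp5. Igfbp5, which binds IGFs in the matrix, fell by 0.62 in DeAC (adjusted p = 0.00193) and by 0.69 in ReAC (adjusted p = 0.000455) against control. Igf1, the circulating and local growth factor, rose by 0.32 in AC30 (adjusted p = 0.0088) and fell by 0.42 in DeAC (adjusted p = 0.00204) against control. The Igf1 rise in AC30 did not pass without AC30 replicate 1 (0.33, adjusted p = 0.0536) or control replicate 2 (0.23, adjusted p = 0.0704). With each array centred on its median neither Igf1 call passed, at 0.32 in AC30 (adjusted p = 0.0618) and -0.28 in DeAC (adjusted p = 0.0629). Igf1 rose by 0.32 in ReAC against DeAC (adjusted p = 0.0171), a call lost without any 1 of the 4 arrays compared, with adjusted p-values of 0.0733 to 0.172, and with median centring (0.29, adjusted p = 0.145). In DeAC against AC30 7 of the 17 fell, against 7.45% of all genes: Igf2r, Igf1r, Igfbp4, Igfbp7, Igfbp3, Igf1 and Igfbp5.

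Other imprinted genes did not share one direction. Of 25 genes listed as transcribed mainly from the paternal copy, 13 were measured. Which copy they use in the rat left ventricle was not measured. In AC2d against control 1 was higher (Nap1l5) and 1 lower (Snurf), against 0.663% and 1.86% of all genes. The same pair passed in AC30, against 3.57% and 4.96% of all genes. In DeAC and in ReAC against control 2 were lower, Ndn and Snurf, against 3.77% and 5.28% of all genes. Snurf, which shares its transcript with the splicing protein gene Snrpn, read 10.25 and 10.26 in AC2d, 10.31 and 10.26 in AC30, 10.59 and 10.64 in DeAC, 10.15 and 10.25 in ReAC, and 10.88 and 10.81 in control. All 4 pools taken after 2 days of heat, first or second, read at most 10.26. The AC30 pools lay close to these, with AC30 against AC2d at 0.03 (limma adjusted p = 0.906). Snrpn itself passed in no comparison with control and not in ReAC against DeAC. In DeAC against AC30 2 of the 13 were higher, Snrpn and Snurf, against 9.85% of all genes. Lower there were 3, Ndn, Nnat and Nap1l5, against 7.45% of all genes. Snurf fell by 0.59 ± 0.05 in AC2d against control (adjusted p = 4.52e-05) and by 0.41 ± 0.05 in ReAC against DeAC (adjusted p = 0.000551), both also without any 1 array. In DeAC against control it fell by 0.23 (adjusted p = 0.012), but not without DeAC replicate 1 (-0.21, adjusted p = 0.0824), without control replicate 1 (-0.20, adjusted p = 0.0655) or with median centring (-0.13, adjusted p = 0.3).

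Ndn, which encodes necdin, a regulator of growth arrest, read 6.49 and 6.55 in AC2d, 6.72 and 6.56 in AC30, 5.79 and 5.86 in DeAC, 5.91 and 5.86 in ReAC, and 6.52 and 6.40 in control. It fell by 0.63 ± 0.10 in DeAC (adjusted p = 0.00227) and by 0.57 ± 0.10 in ReAC (adjusted p = 0.00292) against control, both also without any 1 array. Its low pools are those of Mest, Plagl1 and Grb10. Nap1l5, of the nucleosome assembly protein family, rose by 0.79 in AC2d against control (adjusted p = 0.0153), but not without AC2d replicate 1 (0.82, adjusted p = 0.127), AC2d replicate 2 (0.75, adjusted p = 0.161) or control replicate 2 (0.53, adjusted p = 0.0732). It rose by 0.82 in AC30 against control (adjusted p = 0.00484), but not without AC30 replicate 1 (0.68, adjusted p = 0.0684).

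Of 23 genes listed as transcribed mainly from the maternal copy, 20 were measured. Which copy they use in the rat left ventricle was not measured. In AC2d against control, where 2.53% of all genes passed, 0 of the 20 passed by limma, with 1 at an unadjusted p under 0.05. Against control, 3 were higher in DeAC (Slc22a3, Kcnq1 and Asb4) and 2 lower (Cd81 and Osbpl5), against 4.45% and 3.77% of all genes. Slc22a3, an organic cation transporter, rose by 0.80 ± 0.12 (adjusted p = 0.00127). It fell by 0.64 in ReAC against DeAC (adjusted p = 0.00901), but not without DeAC replicate 2 (-0.59, adjusted p = 0.0895) or ReAC replicate 1 (-0.50, adjusted p = 0.136). The Kcnq1 call (0.21) failed without any 1 of 5 arrays, with adjusted p-values up to 0.149. The Osbpl5 change in DeAC was -0.40 (adjusted p = 0.0308) and failed without any 1 of 7 arrays, with adjusted p-values up to 0.193. Cd81, a tetraspanin gene, fell by 0.26 in ReAC against control (adjusted p = 0.00156) and by 0.21 in DeAC. The DeAC call did not pass without DeAC replicate 1 (-0.18, adjusted p = 0.0699). With median centring the Cd81 changes were -0.12 in DeAC (adjusted p = 0.298) and -0.15 in ReAC (adjusted p = 0.19). In ReAC against control 0 of the 20 were higher and 2 lower (Cd81 and Meg3), against 5.63% and 5.28% of all genes. Cd81 and Meg3 were also the 2 lower genes in ReAC against AC30, with 0 higher, against 4.85% and 6.77% of all genes.

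Among the cell cycle partners of Cdkn1c, 12 of 14 Cdk inhibitors, G1 cyclins and kinases were measured. In AC2d against control 0 were higher and 2 were lower, against 0.663% and 1.86% of all genes: Cdkn1a and Cdkn2c, both Cdk inhibitors. Cdkn1a read 8.66 and 8.53 in AC2d, 8.12 and 8.28 in AC30, 9.30 and 9.39 in DeAC, 9.15 and 9.19 in ReAC, and 8.83 and 9.14 in control. It fell by 0.79 in AC30 against control (adjusted p = 0.000244) and rose by 1.14 in DeAC against AC30 (adjusted p = 4.01e-06), both also without any 1 array. Its AC2d change (-0.39, adjusted p = 0.0376) failed without any 1 of 7 arrays, with adjusted p-values up to 0.321, and its DeAC change against control (0.36, adjusted p = 0.0285) failed without any 1 of 3, with adjusted p-values up to 0.197. Cdkn2c fell by 0.59 in AC2d (adjusted p = 0.0147), but not without AC2d replicate 1 (-0.61, adjusted p = 0.123) or replicate 2 (-0.56, adjusted p = 0.147). The cyclin gene Ccnd1 fell by 0.54 in ReAC against control (adjusted p = 7.26e-05) and by 0.38 in DeAC (adjusted p = 0.00196), where median centring gave -0.27 (adjusted p = 0.0565). The cyclin gene Ccnd2 was lower in the same comparisons, by -0.29 in ReAC (adjusted p = 0.000669) and -0.20 in DeAC (adjusted p = 0.0113). With median centring the Ccnd2 changes were -0.20 (adjusted p = 0.0524) and -0.13 (adjusted p = 0.221), and the DeAC call also failed without either DeAC pool, with adjusted p-values up to 0.0726.

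Of the genes that read imprints or methylate DNA, 12 of 16 were measured. Uhrf1, which guides maintenance of DNA methylation to newly copied DNA, was lower in all 4 heat-experienced groups than in control. It read 6.06 and 6.10 in AC2d, 6.39 and 6.38 in AC30, 6.32 and 6.42 in DeAC, 6.30 and 6.20 in ReAC, and 7.02 and 7.05 in control. Its change against control was -0.96 in AC2d (adjusted p = 0.000126), -0.65 in AC30 (adjusted p = 0.00113), -0.67 in DeAC (adjusted p = 0.00102) and -0.78 in ReAC (adjusted p = 0.000146), all also without any 1 array. These 4 values share the control pools. Of the other 11 genes 0 passed in AC2d against control by limma, where 2.53% of all genes passed. Over the 12, 3 had an unadjusted p under 0.05. Mbd3, of a methyl-CpG binding protein family, was higher in DeAC than in control by 0.23 (adjusted p = 0.0317), a call that failed without any 1 of 7 arrays, with adjusted p-values up to 0.162.

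The Plag zinc fingers, Dlk2 and the Notch genes (12 of 12 measured) gave 0 passing genes in AC2d against control by limma. Over all genes 2.53% passed there. At an unadjusted p under 0.05 there were 4 of the 12. In AC30 against control 1 was higher (Plag1) and 2 were lower (Jag1 and Notch3), against 3.57% and 4.96% of all genes. Hey2, a Notch target gene, was higher in DeAC than in control by 0.39 (adjusted p = 0.0253), a call that failed without any 1 of 3 arrays, with adjusted p-values up to 0.167.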

How the data were processed

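Gene expression was measured on 10 arrays, prepared by the Affymetrix protocol per the labels' protocols, from left ventricle pools. The authors deposited log2 values of 27342 probe sets; their summary and normalization steps are not given in the sources used here. The authors also deposited a table of signed fold values against control (a score whose negative values mean lower) for 651 probe sets, used only for H19. The number of arrays limits the precision.

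Of the probe sets, 15097 have 1 gene symbol in the platform annotation, 323 several and 11922 none. Of the 15097, 15067 were matched to RefSeq symbols. Of the genes, 499 have several probe sets, and the one with the highest mean was kept, without a filter on dim genes. Values were quantile normalized and group means were fitted with limma 3.58.1 in R 4.3.3 (eBayes with trend, two-sided, Benjamini-Hochberg over 14324 genes, adjusted p under 0.05). The fit was tested on simulated data. Tables were made with Python 3.11.15, pandas 2.3.3 and numpy 2.4.6.

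The members and lists were chosen with earlier results of these data known. Every member was named; of each other list, at most the 4 genes with the smallest p in AC2d against control, ReAC against DeAC and DeAC against control that passed were named with values; other passing genes of a list were named only where the text breaks down its count. Genes like a member are the nearest by Pearson correlation, 5 for H19 and 3 for the others. Marker lists were written for 10 cell types. Alternatives changed scaling, variance model, probe sets, dim genes, arrays, pool blocking and threshold. The labels call the pools biological, so p-values cover the spread between pools.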

Additional observations from a re-analysis of the deposited data

Results flagged for a closer look

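Igf2 rose in both pools of the first 2-day exposure against control and was lower, on average, after the second exposure; the second response minus the first was -0.69 ± 0.13 on the log2 scale (limma adjusted p = 0.0521). The difference did not pass, and it is listed because the 2 mean changes had opposite signs. The second of them, ReAC against DeAC, was -0.17 and did not pass (limma adjusted p = 0.411).

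Igfbp3 responded by 1.04 in AC2d against control, and the second response minus the first was -0.81 ± 0.09 (adjusted p = 0.00263), a test of the difference itself that passed without any 1 array.

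Uhrf1 was lower in AC2d than in control, and the second response minus the first was 0.84 ± 0.13 (adjusted p = 0.0229). That call failed without any 1 of 6 arrays, with adjusted p-values up to 0.176, and with median centring (0.79, adjusted p = 0.0539). In all 3 cases the first exposure was in rats labelled 1 month old and the second in rats labelled 3 months old, so exposure and age cannot be told apart.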

How the results depend on the processing

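All alternatives were planned, and no called change of a named gene turned its direction under any of them. The count in AC2d against control was 0 in place of 1 at an adjusted p under 0.01. The count in AC30 against control was 0 in place of 1 with values as deposited, with median centring, without the trend, with all probe sets, with the compared groups alone, with the replicate block and at an adjusted p under 0.01. The count in ReAC against control was 3 in place of 5 with median centring, without the trend, with all probe sets and at 0.01, with Plagl1 lost each time. The other gene lost was Grb10 with median centring and Cdkn1c in the rest of these settings. In AC30 against AC2d it was 1 (Igf2) in place of 0 without the 40% dimmest genes, with the compared groups alone and at 0.1, and in the difference of both 2-day responses it was 1 (Igf2) without the dimmest genes, with all probe sets and at 0.1. Leaving out the dimmest genes removed Dlk1, so 5 of the 6 genes were counted. Leaving out 1 array at a time gave 0 to 1 passing in AC2d, 0 to 0 in AC30, 1 to 3 in DeAC and 2 to 5 in ReAC against control, 0 to 1 in ReAC against DeAC, 0 to 1 in AC30 against AC2d, 2 to 5 in DeAC against AC30, 3 to 4 in ReAC against AC30 and 0 to 1 in the difference of responses. Over all genes, leaving out 1 array gave 78 to 633 passing genes in AC2d (in place of 362), 481 to 1446 in AC30 (1222), 464 to 1374 in DeAC (1178) and 665 to 1713 in ReAC (1564) against control, 98 to 866 in ReAC against DeAC (560), 11 to 357 in AC30 against AC2d (109), 1445 to 2788 in DeAC against AC30 (2478), 747 to 2100 in ReAC against AC30 (1665) and 6 to 198 in the difference of responses (43), so the shares of all genes move too. H19 in AC2d against control ranged over 1.61 to 1.86 in 18 alternatives, and in AC30 over 1.27 to 1.44; the lowest values came from averaging its probe sets. Its ReAC difference from control was 0.19 with median centring. Median centring moved the median of all genes by at most 0.08. Of 62 calls of named list genes, 40 passed without any 1 array and 19 were lost with median centring. The pool numbers did not pair the samples: the correlation of pool differences was -0.077 to 0.21 over 10 pairs of groups, 1 of them above 0.1. With the replicate block, the Grb10 change in AC30 stayed at -0.21 (adjusted p = 0.0571), and no other count moved by over 1.5 times. The causes of these shifts were not tested, and leaving out 1 array changes both the number of pools and which pools remain. The deposited values give no signal over background, so a dim gene such as Dlk1 may be limited by it. The same holds for Mest in ReAC (5.98 and 5.69) and for Ndn in DeAC (5.79 and 5.86) and ReAC (5.91 and 5.86).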
